A study of Mus musculus with 6 samples.

Results

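The α chain of the T cell receptor (TCR) was described here by the third of its complementarity-determining regions (CDR3α), the stretch of the chain that is built when a variable (TRAV) gene is joined to a joining (TRAJ) gene. Members were all distinct CDR3α nucleotide sequences of productive TRA contigs, 744 in all, which encoded 717 amino acid sequences. They came from 1123 productive TRA contigs among 3124 contigs of any kind. The cells were P2+CD4+ T cells, which bind a tetramer of the mouse class II molecule I-Ab carrying P2, a peptide of the retinal autoantigen IRBP, and they were sorted from LN (eye-draining cervical, submandibular and axillary, pooled) after magnetic enrichment. All mice were AireGW/+ Lyn-/- and 9 wk of age, and the 3 libraries shared both alleles. The uveitis libraries, dataset 1 and dataset 2, were pools of 7 and 8 mice, in an order that is not settled, and the library without uveitis was a pool of 16 mice. AireGW is a dominant allele that lowers the display of tissue antigens in the thymus, and Lyn is a Src-family kinase, so that no library here shows the receptors of wild-type mice. Single cells within a pool cannot be assigned to a mouse.

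Dataset 1 held 136 of the distinct sequences, dataset 2 held 140 and the library without uveitis held 475, and 6 sequences were in more than 1 library. They were read in 186, 330 and 483 cells, with a median of 5, 4 and 7 unique molecular identifiers (UMIs, tags of single RNA molecules) per productive TRA contig. A productive TRB contig accompanied the α chain in 176, 324 and 470 of these cells. The contigs hold no transcripts other than receptor chains, and the mRNA libraries of these cells were not used here, so that no other marker of the sorted cells was checked. Of 1088 cell barcodes, 1 was in more than 1 library. With 2 uveitis pools and 1 pool without uveitis, no test between the conditions was made. Each share is followed by its exact (Clopper-Pearson) 95% interval, which covers counting error only and leaves out the differences between mice and pools. An interval by cell takes each cell as a separate draw. Cells that share a sequence can be copies of 1 clone, so that these intervals are too narrow and do not separate the conditions. SDs over sequences describe the spread within a library and are not replicate errors.

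The CDR3α lies at the center of the receptor's contact with peptide and class II molecule. Its ends are set by the germline: a conserved cysteine encoded by TRAV opens it, and a conserved phenylalanine or tryptophan encoded by TRAJ closes it. Bases can be trimmed from both genes and others added between them without a template, and unlike the β chain the α chain has no D gene. In the mouse, the TRAV and TRAJ genes lie in 1 locus on chromosome 14. The 85 TRAV genes called here lie within chr14:52427928-53876752 and the 43 TRAJ genes within chr14:54157280-54217901 (GRCm38, GENCODE M21). To set aside the parts fixed by the germline, residue content was measured in the middle of each CDR3α, after the first 3 and before the last 4 residues. Net charge was the number of lysines and arginines less the number of aspartates and glutamates, and hydrophobic residues were alanine, isoleucine, leucine, methionine, phenylalanine, tryptophan and valine.

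The sequences below were among the 2 read in the most barcodes of their length class in a library or mark the ends of the scales of charge and glycine. Bases run 5′ to 3′, and capitals mark the codons of the middle.
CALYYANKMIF: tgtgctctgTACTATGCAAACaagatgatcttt
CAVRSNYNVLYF: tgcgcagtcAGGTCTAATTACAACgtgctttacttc
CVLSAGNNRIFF (dataset 1): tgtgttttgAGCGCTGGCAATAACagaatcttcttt
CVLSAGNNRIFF (without uveitis): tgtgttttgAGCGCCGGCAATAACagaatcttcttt
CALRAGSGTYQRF: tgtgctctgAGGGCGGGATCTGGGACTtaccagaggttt
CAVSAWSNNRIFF: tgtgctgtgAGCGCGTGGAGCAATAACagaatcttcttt
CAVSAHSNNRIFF: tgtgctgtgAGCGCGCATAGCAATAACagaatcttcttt
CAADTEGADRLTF: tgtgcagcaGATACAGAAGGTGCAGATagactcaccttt
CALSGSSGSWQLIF: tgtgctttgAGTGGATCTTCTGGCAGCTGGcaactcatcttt
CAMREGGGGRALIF: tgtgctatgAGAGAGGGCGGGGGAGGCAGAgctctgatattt
TRAV9N-4 with TRAJ12, 15 residues: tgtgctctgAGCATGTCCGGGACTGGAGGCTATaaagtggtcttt

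Among these, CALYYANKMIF, of 11 residues, was in 7 barcodes without uveitis. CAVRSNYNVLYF, of 12 residues, was in 7 barcodes without uveitis and is matched to its TRAV and TRAJ genes over its whole length, with 0 bases between them. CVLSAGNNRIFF, also of 12 residues, was encoded by a different sequence in each of its libraries, in 3 barcodes of dataset 1 and 7 without uveitis. The most frequent sequence of dataset 1, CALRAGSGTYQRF, was in 16 barcodes, and 7 of its bases lay between the parts matched to TRAV and TRAJ. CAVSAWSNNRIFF was in 62 barcodes of dataset 2 and 2 of dataset 1. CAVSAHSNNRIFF was the only sequence found in all 3 libraries, in 3 barcodes of dataset 1, 37 of dataset 2 and 3 without uveitis. Both end in TRAJ31 and hold no glycine in the middle. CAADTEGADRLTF had the lowest net charge without uveitis, -3, in 4 barcodes. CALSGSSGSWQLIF, in 18 barcodes of dataset 2, carries the tryptophan that TRAJ22 encodes. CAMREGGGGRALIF, in 9 barcodes of dataset 1, held 4 glycines in its 7 middle residues. The sequence of 15 residues was in 22 barcodes without uveitis, the most of that library.

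Counted once per distinct sequence, CDR3α length differed little among the libraries. The mean was 13.4 residues in dataset 1 (SD 1.56 over 136 sequences), 13.6 in dataset 2 (SD 1.15 over 140) and 13.5 without uveitis (SD 1.71 over 475). The uveitis pools averaged 13.5 ± 0.143 residues (SD, n = 2 pools), which differs from the library without uveitis by -0.0142 residues, less than the spread between these pools. Sequences of 13 residues made up 34.6% of dataset 1 (26.6 to 43.2%), 37.9% of dataset 2 (29.8 to 46.4%) and 28.4% without uveitis (24.4 to 32.7%). Those of 14 residues made up 27.2%, 27.9% and 28.6%, and those of 15 or more 19.9%, 20.7% and 21.9%. The intervals overlapped among the 3 libraries in every length class.

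Counted once per cell, by the TRA with the most UMIs, the lengths of dataset 2 narrowed to 13 residues. Cells with a CDR3α of 13 residues were 75 of 186 in dataset 1, or 40.3% (33.2 to 47.7%), 200 of 330 in dataset 2, or 60.6% (55.1 to 65.9%), and 134 of 483 without uveitis, or 27.7% (23.8 to 32.0%). No pair of these intervals overlapped, but they take cells that share a sequence as separate draws. Of the cells with 13 residues, 16 of dataset 1 carried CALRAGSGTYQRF. In dataset 2, 59 carried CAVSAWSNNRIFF and 37 carried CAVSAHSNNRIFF. Cells with 15 or more residues were 13.98% (9.34 to 19.8%), 11.5% (8.28 to 15.5%) and 22.4% (18.7 to 26.3%). The mean length by cell was 13.3, 13.3 and 13.4 residues. Dataset 2 had smaller shares of cells than the other libraries on both sides of 13, and its SD over cells was 0.931 residues, against 1.40 in dataset 1 and 1.70 without uveitis. Dataset 1 and the library without uveitis hold 3 and 9 cells whose CDR3α has an end away from the conserved codons, most of them of 5 or 6 residues, and without these the SDs were 1.15 and 1.30, still above that of dataset 2, which has no such cell. TRAJ31 was the J gene of 103 of the 200 cells with 13 residues in dataset 2, or 51.5% (44.3 to 58.6%), of 14 of 75 in dataset 1 and of 13 of 134 without uveitis. Among cells with any other TRAJ, 13 residues were still the length of 37.2% (29.8 to 45.1%), 44.9% (38.2 to 51.8%) and 26.8% (22.8 to 31.2%).

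**Figure D1:**
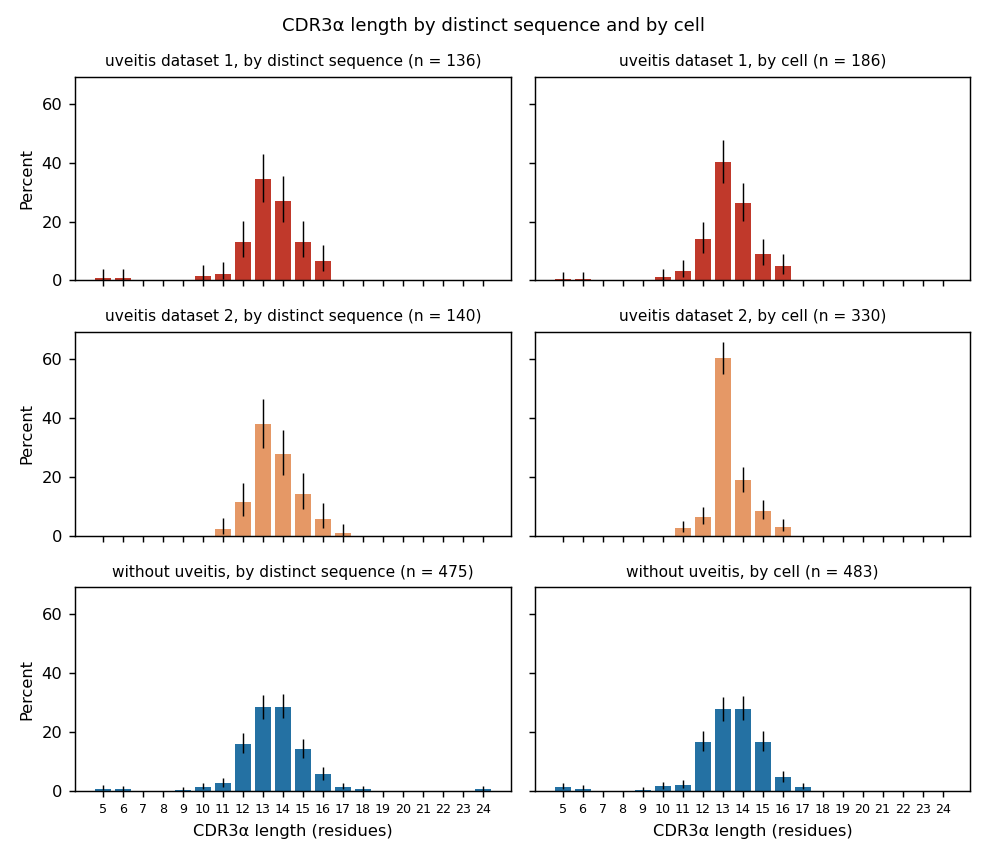
Percent of distinct CDR3α sequences (left) and of cells (right) at each length in residues, for dataset 1, dataset 2 and the library without uveitis, with bars for the percent and lines for the exact 95% interval. The libraries look alike by sequence, while by cell 60.6% of dataset 2 stands at 13 residues.

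Mean length was larger with the longest J genes than with the shortest. The J codons are themselves part of the CDR3α, so that some of this rise was built in. TRAJ genes were grouped by the whole codons their germline sequence gives up to the conserved residue, from 8 (TRAJ31, TRAJ21 and TRAJ33 among them) to 11 (TRAJ32, TRAJ28 and TRAJ18 among them). In dataset 1, mean CDR3α length was 12.4 residues for the 25 sequences with a TRAJ of 8 codons, 13.3 for 59 with 9, 14.3 for 33 with 10 and 14.6 for 16 with 11. Dataset 2 gave 12.8, 13.5, 13.5 and 14.9 residues for 24, 57, 34 and 25 sequences. The library without uveitis gave 12.5, 13.4, 13.9 and 14.8 residues for 83, 192, 125 and 66. The step from the shortest to the longest group was thus present in each library, and the SD within a group, 0.676 to 1.38 residues, was of the size of the steps.

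**Figure D2:**
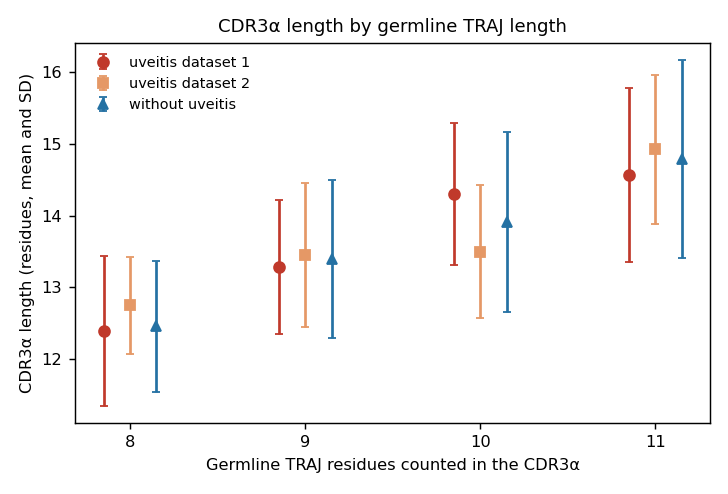
Mean CDR3α length in residues, with its SD over distinct sequences, against the number of germline TRAJ codons up to the conserved residue, for each library. Mean length goes from 12.4 to 12.8 residues at 8 codons to 14.6 to 14.9 residues at 11.

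TRAJ31 led by distinct sequences in all 3 libraries, with 13 sequences of dataset 1 (9.56%, 5.19 to 15.8%), 12 of dataset 2 (8.57%, 4.51 to 14.5%) and 29 without uveitis (6.11%, 4.13 to 8.65%). Its CDR3α averaged 12.3, 12.7 and 12.2 residues. By cell it was the J gene of 11.8% of dataset 1, 34.5% of dataset 2 and 6.63% without uveitis. TRAJ22, whose CDR3α averaged 13.6 residues in dataset 1 and 14 in dataset 2, came next in both uveitis libraries with 9 and 8 sequences. TRAJ37 came next without uveitis with 28 sequences and a mean of 14.04 residues. TRAJ23 was among the 4 leading J genes of each library, with 8, 7 and 26 sequences. Among the 5 TRAV families with the most sequences of each library, with their copies merged, mean length ran from 12.97 to 14 residues in dataset 1, 13.2 to 13.8 in dataset 2 and 13.3 to 13.5 without uveitis, where TRAV13 had as many sequences as the last of them and a mean of 13.1. TRAV9 was the leading family of both uveitis libraries, with 30 and 35 sequences, and TRAV7 that of the library without uveitis, with 73.

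All 3 parts of the junction were larger in the longest class than in the shortest. In sequences that begin and end at the conserved codons, a mean of 11.5, 11.4 and 11.5 bases matched TRAV and 26.1, 26.6 and 26.4 matched TRAJ, in dataset 1, dataset 2 and without uveitis. The bases between the matched parts averaged 3.07 (SD 2.24, 133 sequences), 2.86 (SD 1.88, 140) and 2.83 (SD 2.25, 466). They can be additions without a template or germline bases beyond a mismatch, and added bases that equal the germline count as matched. From sequences of up to 11 residues to those of 15 or more, the bases between rose from 1.80 to 4.33 in dataset 1, from 1.67 to 3.83 in dataset 2 and from 1.47 to 4 without uveitis. Bases matched to TRAJ rose from 20.0 to 28.9, 20.7 to 29.7 and 20.7 to 29.6, and those matched to TRAV from 10.2 to 12.9, 11 to 12.5 and 9.58 to 12.8. These parts add up to the length, so that some of them had to rise. The steps between were uneven: in dataset 2, bases matched to TRAV were 9.75 at 12 residues. Bases between the matched parts went there from 2.91 at 13 residues to 2.54 at 14. The class of up to 11 residues rests on 5, 3 and 19 such sequences. No base lay between the matched parts in 12.8% of the sequences of dataset 1 (7.63 to 19.7%), 7.14% of dataset 2 (3.48 to 12.7%) and 15.7% without uveitis (12.5 to 19.3%).

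The middle residues changed with length. Glycine, the residue without a side chain, made up 18.9%, 16.3% and 15% of middle residues in sequences of 12 residues in dataset 1, dataset 2 and without uveitis, and 23.2%, 27.1% and 22.9% in those of 14. The rise was not even: at 13 residues glycine was 18.1%, 16.04% and 17.8%, and at 15 or more 22.2%, 22.7% and 23.5%. Asparagine went the other way, from 23.3%, 20.0% and 28.4% at 12 residues over 18.4%, 20.8% and 20.9% at 13 to 15.1%, 10.6% and 13.3% at 14 and 12%, 11.98% and 11.6% at 15 or more. Hydrophobic residues rose from 7.78% to 20.9% between 12 residues and 15 or more in dataset 1 and from 12.6% to 19.3% without uveitis, while dataset 2 had 13.8% and 14.05%. The class of up to 11 residues rests on 18, 12 and 68 middle residues.

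**Figure D3:**
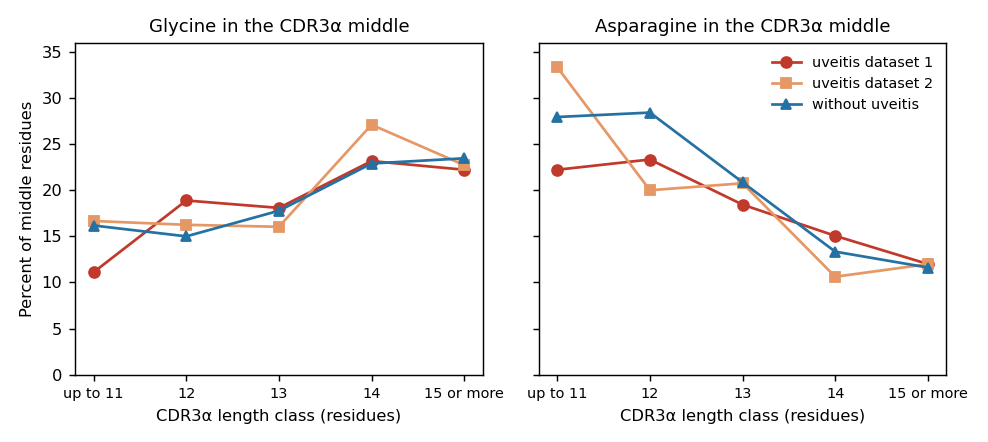
Percent of CDR3α middle residues that are glycine (left) and asparagine (right) in each length class, over the distinct sequences of each library. At 14 residues glycine stands higher and asparagine lower than at 12 in all 3 libraries, with uneven steps between, and the shortest class holds 12 to 68 residues per library.

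The germline part in which a residue lies differed by residue. Of the middle residues, 66.1%, 68.2% and 68.0% lay in codons wholly matched to TRAJ in dataset 1, dataset 2 and without uveitis, and 24.1%, 23.2% and 22.4% in codons matched whole to neither gene, called junction codons here. A codon matched to both genes was counted for TRAJ. Asparagine was in TRAJ codons in 95.8%, 97.9% and 98.9% of cases and glycine in 76.5%, 79.5% and 77.3%. Lysine and arginine lay mostly in junction codons, in 75.0%, 86.0% and 71.4% of cases, and proline in 100%, 92.3% and 93.6%. Aspartate and glutamate were spread, with 47.4%, 29.8% and 33.3% in TRAV codons. Hydrophobic residues were split about evenly between junction codons (48.9%, 48.4% and 48.8%) and TRAJ codons (46.7%, 51.6% and 48.8%).

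By distinct sequence, the middle residues of the 3 libraries came in similar shares, with serine and asparagine the least alike. Glycine was the most frequent, at 20.6% in dataset 1, 21.1% in dataset 2, equal with serine there, and 20.6% without uveitis. Serine made up 18.8%, 21.1% and 16.6%, asparagine 16.4%, 15.6% and 17.0%, alanine 8.01%, 8.32% and 7.83%, and threonine 6.75%, 7.14% and 6.80%. The uveitis pools averaged 20.8 ± 0.344% glycine (SD, n = 2 pools), 0.226 points above the library without uveitis. Hydrophobic residues were 15.8%, 13.8% and 14.98% of the middle, and the mean of the uveitis pools less the library without uveitis was -0.162 points. Both differences are smaller than the spread between the uveitis pools. Serine was higher in the uveitis pools by 3.30 points (19.9 ± 1.64%, SD, n = 2 pools), asparagine differed by -1.01 points (15.96 ± 0.561%) and alanine by 0.341 points (8.17 ± 0.223%), each more than the spread between the pools. Threonine differed by 0.147 points, less than its spread of 0.272.

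By cell, dataset 2 stood apart from both other libraries. Glycine fell to 15.1% of its middle residues, against 21.1% in dataset 1 and 21.7% without uveitis, while serine was 26.9% and asparagine 20.9%. Cells without any glycine in the middle were 54 of 184 in dataset 1, or 29.3% (22.9 to 36.5%), 146 of 330 in dataset 2, or 44.2% (38.8 to 49.8%), and 90 of 474 without uveitis, or 19.0% (15.6 to 22.8%). No pair of these intervals overlapped, with the upper bound without uveitis at 22.8% and the lower bound of dataset 1 at 22.9%. By distinct sequence the shares were 24.6% (17.6 to 32.8%), 21.4% (14.9 to 29.2%) and 19.8% (16.3 to 23.7%), with overlapping intervals. In dataset 2, 59 of the cells without glycine carried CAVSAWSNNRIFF and 37 carried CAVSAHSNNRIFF, and 71.2% used TRAJ31. In dataset 1 the 54 cells held 30 different sequences, led by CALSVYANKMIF with 9 cells, and 33.3% used TRAJ31. Averaged over the uveitis pools, glycine by cell was 18.1 ± 4.27% (SD, n = 2 pools), a difference of -3.64 points from the library without uveitis that is smaller than the spread between the pools. Dataset 2 less dataset 1 was -6.03 points.

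Tryptophan, the residue with the bulkiest side chain, was in the middle of 18 of 184 cells in dataset 1, or 9.78% (5.90 to 15.02%), 95 of 330 in dataset 2, or 28.8% (23.96 to 34.0%), and 21 of 474 without uveitis, or 4.43% (2.76 to 6.69%). In dataset 2, 59 of the 95 cells carried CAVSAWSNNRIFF, where the tryptophan stands at position 6 of the CDR3α, and 31.6% used TRAJ22. TRAJ22 was the J gene of 61.1% of these cells in dataset 1 and 66.7% without uveitis. By distinct sequence the shares were 11.2% (6.40 to 17.8%), 10.0% (5.58 to 16.2%) and 5.96% (3.99 to 8.495%), with overlapping intervals. At position 5, 39.9% of the cells of dataset 1 (32.7 to 47.4%), 48.8% of dataset 2 (43.3 to 54.3%) and 32.7% without uveitis (28.5 to 37.1%) had a hydrophobic residue, against 28.6%, 26.4% and 28.3% of distinct sequences. Of the 161 such cells of dataset 2, 59 carried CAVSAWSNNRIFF and 37 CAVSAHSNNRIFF, both with alanine there. Of the 73 in dataset 1, 16 carried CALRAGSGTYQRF, also with alanine there. Over the whole middle, hydrophobic residues by cell averaged 16.7 ± 0.959% in the uveitis pools (SD, n = 2 pools), 2.19 points above the library without uveitis. This is more than the spread between the pools, but without the most frequent sequence of each library the difference was 0.421 points.

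**Figure D4:**
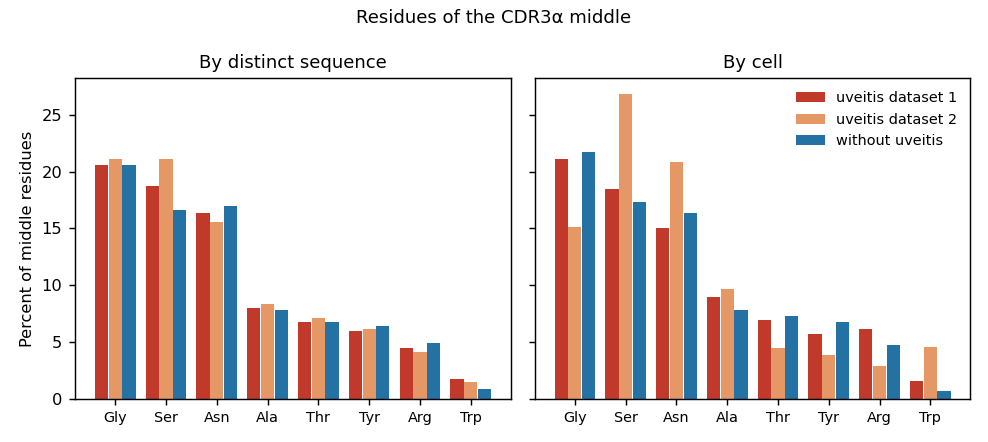
Percent of CDR3α middle residues for 8 amino acids by distinct sequence (left) and by cell (right), with a bar for each library. By sequence the bars of the libraries are close, and by cell dataset 2 has 15.1% glycine, 26.9% serine and 4.55% tryptophan.

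Most of the distinct sequences had no net charge in the middle: 56.7% in dataset 1, 55.7% in dataset 2 and 53.4% without uveitis. Net charge averaged 0.0821, -0.0286 and -0.0574 by sequence, with SDs of 0.766 to 0.830. By cell it averaged 0.228, 0.0636 and -0.0274, and the uveitis pools averaged 0.146 ± 0.116 (SD, n = 2 pools), 0.173 above the library without uveitis, a difference larger than the spread between the pools. With dataset 2 as the only uveitis pool, it was 0.0911, below that spread, and with dataset 1 alone 0.256. Cells with a negative middle were, in the same order, 11.96% (7.65 to 17.5%), 12.4% (9.07 to 16.5%) and 22.6% (18.9 to 26.6%), and the intervals of both uveitis libraries lay below that without uveitis. By distinct sequence the shares were 17.9% (11.8 to 25.5%), 22.1% (15.6 to 29.9%) and 25.5% (21.6 to 29.7%), with overlapping intervals. Cells with a positive middle were 33.2% (26.4 to 40.5%), 19.7% (15.5 to 24.4%) and 21.3% (17.7 to 25.3%). The interval of dataset 1 lay above both others here, and 16 of its 61 positive cells carried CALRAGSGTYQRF and 9 carried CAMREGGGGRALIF. In the narrower middle, after the first 4 and before the last 5 residues, the difference in net charge by cell was 0.0447.

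Sequences in 2 or more barcodes of a library (expanded) were compared with those in 1 barcode (single), each sequence counted once. Expanded sequences numbered 27 of 136 in dataset 1, 43 of 140 in dataset 2 and 29 of 475 without uveitis. Glycine was lower in expanded sequences in each library: 17.9% against 21.3% in dataset 1, 18.9% against 22.02% in dataset 2 and 19.4% against 20.7% without uveitis, a mean difference of -2.56 ± 1.13 points (SD, n = 3 libraries). With sequences from barcodes that hold exactly 1 productive TRA, the differences were -5.21, -4.28 and 0.988 points, so that the direction did not hold without uveitis. In dataset 1, 10 of 27 expanded sequences had no glycine, or 37.0% (19.4 to 57.6%), against 23 of 107 single ones, or 21.5% (14.1 to 30.5%). These intervals overlap, as they do in the other libraries.

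Net charge was higher in expanded than in single sequences in both uveitis libraries, 0.259 against 0.0374 in dataset 1 and 0.209 against -0.134 in dataset 2. Without uveitis it was -0.0741 against -0.0564. In the narrower middle, the differences were 0.0460, 0.0489 and -0.00620. Hydrophobic content differed by 0.493, 0.130 and 1.58 points. Sequences of 13 residues were 44.4% of expanded (25.5 to 64.7%) and 32.1% of single ones (23.5 to 41.7%) in dataset 1, and 46.5% (31.2 to 62.3%) and 34.0% (24.7 to 44.3%) in dataset 2. Without uveitis they were 24.1% (10.3 to 43.5%) and 28.7% (24.5 to 33.1%). From 12 to 13, 14 and 15 or more residues, the share of sequences that were expanded was 11.1%, 25.5%, 27.03% and 7.41% in dataset 1, 25%, 37.7%, 25.6% and 27.6% in dataset 2, and 6.58%, 5.19%, 5.88% and 4.81% without uveitis, so that no class was the highest in all 3 libraries. The expanded sequences are few and their intervals wide, and those of expanded and single sequences overlapped in each library at 13 residues. The mean length of expanded less single sequences was 0.00374 residues in dataset 1, -0.138 in dataset 2 and -0.811 without uveitis, where 2 of the 29 expanded sequences ended early, as described with the short sequences. Without those whose ends lie elsewhere the differences were -0.149, -0.138 and -0.287 residues.

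Cells with 2 productive TRA numbered 19 in dataset 1, 27 in dataset 2 and 78 without uveitis, and none had 3. Such cells are known among T cells, because both α alleles can rearrange, and droplets with more than 1 cell give them too. The part of such droplets was not tested. The first TRA by UMIs had a median of 6, 7 and 8 UMIs and the second 3, 4 and 5, and 3, 3 and 7 cells had equal UMIs. The length of the first less the second TRA was -1.16 residues in dataset 1 (SD over cells 2.48), -0.444 in dataset 2 (SD 1.74) and -0.154 without uveitis (SD 2.68). These values include sequences whose ends lie away from the conserved codons, described with the shortest and longest sequences: 2 first sequences of dataset 1, CAVSVT of 6 residues and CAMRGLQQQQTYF of 13, and 4 second sequences without uveitis, of which 2 have 24 residues. Without these cells the differences were -0.765 (SD 1.95), -0.444 and 0.0541 residues (SD 2.10), so that no direction held in all 3 libraries. Without uveitis the first was longer in 35 cells, the second in 32 and they were equal in 11.

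The middle of the first TRA held more glycine in each library, by 0.705, 3.26 and 5.14 points, with SDs over cells of 16.3, 19.4 and 20.7 points. Without uveitis the first had more glycine in 43 cells and the second in 31. Hydrophobic content was higher in the first by 2.36, 1.35 and 1.94 points, and without the cells with equal UMIs the mean of the 3 libraries fell from 1.88 to 0.402 points. Net charge differed by 0.333, -0.370 and -0.0128. Some pairs recurred in several cells. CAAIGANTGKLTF and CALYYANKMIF, of 13 and 11 residues, were together in 7 barcodes without uveitis, where the former had more UMIs in 6. The former holds 2 glycines in 6 middle residues and the latter 0 in 4, so that these 6 cells raise the glycine difference of that library. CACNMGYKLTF and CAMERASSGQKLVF, of 11 and 14 residues, were together in 3 barcodes of dataset 1. The 19, 27 and 78 cells thus held 17, 19 and 66 different pairs. The differences between first and second TRA count every cell, so that a recurrent pair weighs more, and values per pair were not computed.

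**Figure D5:**
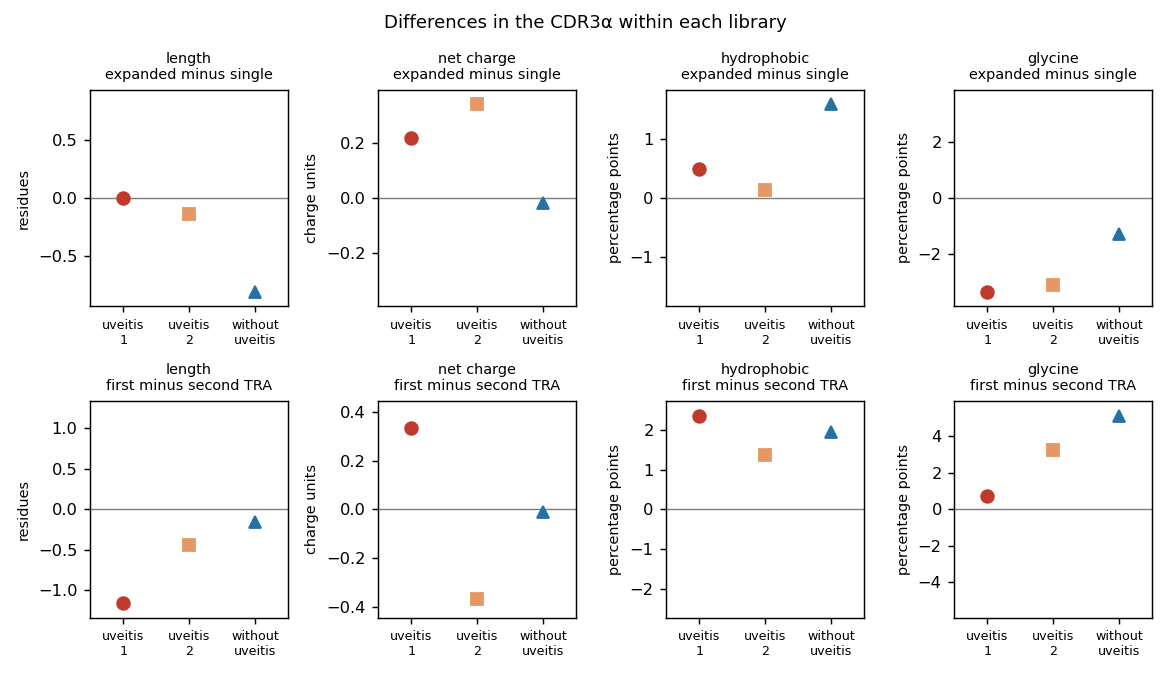
Differences in mean CDR3α length (residues), net charge, hydrophobic and glycine content (percentage points) between expanded and single sequences (top) and between the first and the second TRA of a cell (bottom), with a point for each library and no error. Glycine lies below 0 in all 3 libraries at the top and above 0 in all 3 at the bottom.

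The shortest sequences of dataset 1 and the shortest and longest without uveitis did not end or begin at the conserved codons. In 12 entries, 3 of dataset 1 and 9 without uveitis, the start or end lay elsewhere on the germline gene, in 16 barcodes, and dataset 2 had none. Of these, 7 were TRAJ44 sequences of 5 or 6 residues, in 11 barcodes, out of 13 TRAJ44 sequences in all. They end at a threonine codon 24 bases before the conserved codon of TRAJ44 (GRCm38, chr14:54173690-54173750, plus strand), where the next germline codons encode glycine, serine and glycine. Capitals mark the codon where these sequences end and, below it, the conserved leucine codon of the gene.
CVLST: tgtgttttgagtact
TRAJ44 germline, end of the short sequences: gttACTggcagtggtggaaaactcactttg
TRAJ44 germline, conserved codon: gttactggcagtggtggaaaactcactTTG

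Read on to that codon, they would be 13 or 14 residues long. CVLST, in 4 barcodes without uveitis, has no middle, and neither have the 6 others of this kind, which are left out of residue content. Of all 34 entries of up to 11 residues in the libraries, 27 have both ends at the conserved codons. In 2 further sequences without uveitis, both of TRAV3N-3 and 24 residues long, the start lies 31 bases before the conserved cysteine, in another frame. The last 3, with TRAJ7 or TRAJ16, end 1 base short of the end of the conserved codon, in another frame. Apart from these, the longest sequences had 16 residues in dataset 1, 17 in dataset 2 and 18 without uveitis.

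Amino acid sequences found in more than 1 library were close to the mean in length. They numbered 20, of 12 to 15 residues, with a mean of 13.3 against 13.5 for the 697 found in 1 library, and 10 of them had 13 residues. Of the 717 amino acid sequences, 27 were encoded by 2 nucleotide sequences and none by more. Of the 20, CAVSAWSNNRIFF was in 65 barcodes, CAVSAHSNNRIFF in 43 and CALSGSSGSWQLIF in 19. A larger library has more chances to share a sequence, so that no library was called more shared than another.

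Cysteine, which can form a disulfide bond, was in the middle of 2 sequences, both in 1 barcode of dataset 2.
TRAV3-3 with TRAJ32, 15 residues: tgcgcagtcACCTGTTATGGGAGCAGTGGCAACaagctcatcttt
TRAV21-DV12 with TRAJ57, 16 residues: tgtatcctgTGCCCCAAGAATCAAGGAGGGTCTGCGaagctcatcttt

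None of the 134 sequences with a middle in dataset 1 had a cysteine there, where 3 counts would make 2.24% and the exact upper bound is 2.72%. None of the 470 without uveitis had it either, where 3 counts would make 0.638% and the exact upper bound is 0.782%. A difference was not detectable at this depth. These counts cover the middle only: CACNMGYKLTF, in 4 barcodes of dataset 1, has a cysteine at position 3, before the middle. Cysteines outside the middle were not counted. The length of the CDR3β found in the same cell bore little relation to that of the CDR3α. Over distinct CDR3α sequences with a partner, Pearson's r was -0.0815 in dataset 1 (116 sequences), -0.0453 in dataset 2 (129) and -0.0818 without uveitis (403), as a description across sequences of 1 library that share its depth and its mice.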

How the data were processed

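Single-cell TCR libraries of P2+CD4+ T cells (10x Genomics 5′ assay) were analysed, 2 from pools with uveitis and 1 from a pool without. The mRNA libraries of the series were not used here. The authors assembled contigs with Cell Ranger. The submitters' processing notes name mm10, and the study's methods name mm10 or a VDJ reference of GRCm38. The deposited values are whole-number counts of reads and UMIs per contig, without normalization, beside gene calls and CDR3 sequences. Depth was 5302, 7439 and 21408 UMIs over all contigs.

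Productive TRA contigs were reduced to 1 entry per barcode and CDR3 nucleotide sequence. By cell, the TRA with the most UMIs, then reads, was used. Germline matches used GENCODE M21 (GRCm38), which may differ from the authors' reference: the longest shared start with a TRAV of the called family and the longest shared end with the called TRAJ. Droplets with more than 1 cell were not removed. Whether barcodes with equal sequences came from separate mice is not known.

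Named sequences were, per library, the 2 in the most barcodes of each length class (2 or more barcodes), the shortest, the longest, the extremes of charge and glycine, those in more than 1 library (up to 10 with the most barcodes), the 5 leading TRAJ genes, TRAV families and residues, and cysteine. Sequences whose ends lie elsewhere, tryptophan, the recurrent pairs and the leading sequences of cells without glycine or with a positive charge were added after their values were seen, as were the examples of TRAJ codon groups. Members and lists were chosen with earlier results of these data known. Scripts were tested on simulated data. The software was Python (3.11.15) with scipy (1.17.1), for the exact intervals, numpy (2.4.6), pandas (2.3.3) and, for plots, matplotlib (3.10.9).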

Additional observations from a re-analysis of the deposited data

Results flagged for a closer look

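The net charge of expanded less single sequences was above 0 in both uveitis libraries, 0.222 and 0.343, and below 0 without uveitis, -0.0176. The uveitis libraries and the other moved in opposite directions, and the difference was not tested. The value without uveitis was above 0 under other choices: 0.319 with barcodes of exactly 1 productive TRA, 0.0216 with barcodes that have a TRB, 0.0109 with at least 2 UMIs and 0.00677 with histidine as positive. In both uveitis libraries it was above 0 under every choice tried, from 0.0460 to 0.416.

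TRA contigs with a CDR3 that were not productive entered no comparison. Dataset 1 had 16, of which 4 held a stop codon, dataset 2 had 8 with none, and the library without uveitis had 20 with 6. Their median length was 13, 14 and 14 residues, and 4 of the 8 in dataset 2 had the same nucleotide sequence as a productive CDR3α of that library. They rested on a median of 2, 2.5 and 2 UMIs.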

How the results depend on the processing

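The 16 differences were recomputed under 17 alternatives, 3 of them added after the data were seen. Of 164 values, 146 stayed within the spread (SD between the uveitis pools, or over the 3 libraries). Values without 1 uveitis library cannot leave that spread, because it comes from the same libraries. The values of first less second TRA with at least 2 UMIs or with a TRB did not change at all. Both kinds are counted among the 146, so that this count is not a measure of stability. Why values moved beyond the spread was not tested. Uveitis less no uveitis by cell, length went from -0.0973 to 0.0279 residues, with the sign reversed, without the most frequent CDR3α of each library, to -0.0336 with exactly 1 productive TRA per barcode, to -0.204 without sequences whose ends lie elsewhere and to -0.203 with TRAJ44 read to its conserved codon. Hydrophobic content by cell (2.19 points) became 3.26 with exactly 1 TRA, 3.96 in the narrower middle, 0.203 with tyrosine and cysteine counted, 0.728 without alanine and 0.421 without the most frequent CDR3α. Net charge by cell became 0.0447 in the narrower middle. By distinct sequence, hydrophobic content became 1.30 and glycine -0.168 points with exactly 1 TRA, and glycine 1.31 in the narrower middle. Expanded less single, hydrophobic content became -0.852 with exactly 1 TRA and -0.558 with tyrosine and cysteine, and glycine -3.98 with 3 or more barcodes as expanded. By library, this last difference was -6.48 points in dataset 1, -5.24 in dataset 2 and -0.227 without uveitis. First less second TRA, hydrophobic content became 2.98 in the narrower middle and 0.402 without equal UMIs.

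Without uveitis TCR replicate 1 or replicate 2, glycine by cell was -6.65 or -0.621 points, hydrophobic content by cell 2.87 or 1.52 and net charge by cell 0.0911 or 0.256. No paired analysis was possible because only 1 library was without uveitis. Depth can limit the share of second TRA and the calls of single sequences, which was not tested. In dataset 1, dataset 2 and without uveitis, 8.29%, 7.56% and 3.39% of productive TRA rested on 1 UMI.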
